A study of Homo sapiens with 18 samples.

Results

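A set of 83 genes was higher in forebrain medium than in midbrain or hindbrain medium, whether the cells had come from anterior or from posterior neural ectoderm. The set was chosen from group means of log2(TPM + 1), where TPM is the usual length-scaled abundance of transcripts, and the 1 added is a pseudocount. A gene was a member when forebrain medium exceeded each of the other media by at least 1 on this scale in cells of both origins, its levels in the 2 forebrain medium groups differed by less than 1, and both groups averaged at least 5 TPM. Of the 37550 rows of the table, 29648 carried a gene symbol, 9732 of these met the conditions on level and on likeness of the 2 forebrain medium groups, and 83 met all conditions. By RefSeq, 82 of the 83 are protein coding and 1, BMS1P13, is a pseudogene. Because the forebrain medium values chose the members, every difference of the members between forebrain medium and the other media is given below as a description, with no test. Tests of these contrasts are read only for genes outside the set. Where a list count or plot also takes in the members CCN1 or PAX6, this is said. The rule fixed the differences of these members, so nothing is read from their calls.

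All cells were H1, an established wild-type human embryonic stem cell line, and each of 9 groups had 2 libraries that the submitters describe as distinct biological replicates. They comprised undifferentiated stem cells (hPSC, day 0), the anterior and posterior neural ectoderm of day 2 (aNE and pNE), and day-4 cells of either origin grown in forebrain (aNE_T, pNE_T), midbrain (aNE_M, pNE_M) or hindbrain (aNE_H, pNE_H) medium. Every differentiated group had first spent 1 day in a definitive ectoderm medium with the TGF-beta receptor inhibitor A8301 at 1 µM, the MEK inhibitor trametinib at 250 nM, the porcupine inhibitor C59 at 1 µM and the BMP receptor inhibitor LDN193189 at 100 nM. On day 2 both origins again received A8301 (1 µM) and LDN193189 (100 nM), with thiazovivin after passaging. To these, anterior cells had C59 (1 µM) added, whereas posterior cells had the retinoid TTNPB (50 nM), FGF2 (20 ng/mL) and the tankyrase inhibitor XAV939 (1 µM). The forebrain medium began with XAV939 (1 µM), LDN193189 (100 nM) and FGF2 (20 ng/mL), and its later composition and that of the midbrain and hindbrain media are not used here. Cells taken at day 2 had been plated at 37500 per cm2. For day 4, anterior cells were plated at 75000 and posterior cells at 150000 per cm2, so origin and density cannot be told apart at day 4, while the 3 media within an origin shared 1 density. Between day 2 and day 4 the day, the medium and the density changed together and cannot be told apart. The number of genes with any signal ran from 19239 to 21235 over the libraries, and mitochondrial transcripts took 0.96% to 3.74% of TPM. TPM keeps no read number, so depth is unknown and no counting interval is given.

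The set includes genes of the contractile and adhesive side of the cell: 16 of the 83 are on a list of 57 actin cytoskeleton and SRF target genes that was written after the members had been seen. Actin filaments slide against myosin under the control of tropomyosin, calponin and transgelin, and filaments are tied to the membrane through LIM-domain proteins, filamins and focal adhesions. Genes of this machinery are textbook targets of SRF, serum response factor, which binds the CArG box and whose cofactors of the MRTF family respond to the pool of unpolymerised actin. YAP and TAZ, coactivators that work with TEAD factors, also respond to cell shape and drive genes such as CCN1, CCN2 and ANKRD1. A second set of members, SOX2, SOX21, PAX6 and NES, is best known from dividing neural progenitors of the early neural tube.

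Since genes such as ACTA1, TAGLN and CNN1 are SRF targets by textbook knowledge, the members' promoters were searched for the CArG box, a motif chosen after the members had been seen. RefSeq promoters (GRCh38.p14, 250 bases before to 50 after the first listed start) were found for 64 of the 83 members. The CArG box, on either strand of these 300 bases, was present in 6 of the 64 (9.38%), against 1.29% of 27305 promoters in all and 1.14% of the 11825 promoters of tested genes. The 6 were ACTA1, ACTG2, FILIP1, FILIP1L, GARIN1B and ISG15. CNN1, ACTA2, TPM1, CSRP1, CAV1 and LMOD1 were searched and held no box in this window, and TAGLN had no promoter among the 64. Of the actin-list members with a promoter 2 of 11 held the box, of the other members 4 of 53, and of the actin-list genes outside the set 8 of 37. With every listed start of a gene allowed, LPP joined the 6 members with a box and the share was 10.9%, against 1.6% of all genes. The 250 bases before the start of 4 of these genes, 2 actin genes and a pair of filamin-interacting genes, are printed 5′ to 3′ in lower case with the CArG box in capitals.

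ACTA1 (chr1:229434095-229434344, minus strand): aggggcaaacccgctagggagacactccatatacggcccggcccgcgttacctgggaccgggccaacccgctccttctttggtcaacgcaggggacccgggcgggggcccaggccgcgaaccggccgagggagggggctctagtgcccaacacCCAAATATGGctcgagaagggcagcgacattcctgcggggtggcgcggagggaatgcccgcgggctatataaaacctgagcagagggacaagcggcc

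ACTG2 (chr2:73892758-73893007, plus strand): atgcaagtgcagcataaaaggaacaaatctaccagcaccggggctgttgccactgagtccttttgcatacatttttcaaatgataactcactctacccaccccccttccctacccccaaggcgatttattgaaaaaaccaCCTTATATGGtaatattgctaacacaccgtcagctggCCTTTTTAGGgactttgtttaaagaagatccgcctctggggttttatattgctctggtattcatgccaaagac

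FILIP1 (chr6:75493801-75494050, minus strand): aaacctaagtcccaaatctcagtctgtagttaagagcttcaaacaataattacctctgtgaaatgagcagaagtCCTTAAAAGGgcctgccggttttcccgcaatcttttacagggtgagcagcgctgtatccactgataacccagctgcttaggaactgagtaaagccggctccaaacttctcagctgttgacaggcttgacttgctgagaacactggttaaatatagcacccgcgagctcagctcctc

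FILIP1L (chr3:99876174-99876423, minus strand): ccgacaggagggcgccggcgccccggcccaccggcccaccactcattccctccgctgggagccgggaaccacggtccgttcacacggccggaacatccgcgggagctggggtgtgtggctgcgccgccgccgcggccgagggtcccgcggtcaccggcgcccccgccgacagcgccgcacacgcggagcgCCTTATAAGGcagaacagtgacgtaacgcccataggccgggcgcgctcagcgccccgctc

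The box began 97 bases before the start in ACTA1 and 60 bases before it in FILIP1L. In FILIP1 it began 176 bases before the start, and ACTG2 held 2 boxes, at 110 and 73 bases before it. Other motifs were also counted in the same windows, on both strands. The cyclic AMP response element TGACGTCA was present in 6 members' promoters (9.38%, against 1.98% of all and 3.21% of tested genes' promoters): PAX6, IL32, LPP, NOL4, CLDN6 and DUSP8. For the other motifs the shares follow in the order members, all promoters, promoters of tested genes. They were 18.8%, 14% and 11% for the TEAD core GGAATG, 18.8%, 12% and 6.22% for the TATA element TATAAA, and 62.5%, 44.6% and 68.6% for the GC box GGGCGG. They were 6.25%, 7.76% and 4.49% for the AP-1 core TGANTCA, 10.9%, 13.1% and 8.87% for the TCF/LEF core CTTTGA, and 10.9%, 16% and 11% for the SOX core ACAAAG. For the homeodomain core TAATTA they were 4.69%, 4.98% and 2.04%, for the E box CACGTG 6.25%, 7.43% and 9.79%, and for the ETS core CCGGAAG 3.12%, 10.7% and 17.6%. These are matches of letters, some motifs can overlap one another, and no binding was measured.

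Together the 83 genes took 1.31% and 1.32% of all TPM in the aNE_T libraries and 1.15% and 1.17% in the pNE_T libraries. They took 0.377% and 0.378% in aNE_H and 0.312% and 0.337% in pNE_H. The lowest shares were in midbrain medium, with 0.137% and 0.138% in aNE_M and 0.212% and 0.214% in pNE_M. Before day 4 the share was 0.243% and 0.246% in hPSC, 0.566% and 0.574% in aNE, and 0.448% and 0.486% in pNE. TAGLN, TPM1 and MYL9 made up 45% to 49.3% of the members' sum in the 4 forebrain medium libraries. In all 83 genes both forebrain medium libraries exceeded all 4 midbrain and hindbrain medium libraries of the same origin, as the rule nearly requires. In 53 genes the 4 forebrain medium libraries exceeded all 14 other libraries, day 0 and day 2 included. The rule chose for high forebrain medium values, so nothing is read from this count. The heat map of the members by library shows the genes that stood highest only in forebrain medium at its top and those already high at day 2 at its foot.

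**Figure D1:**
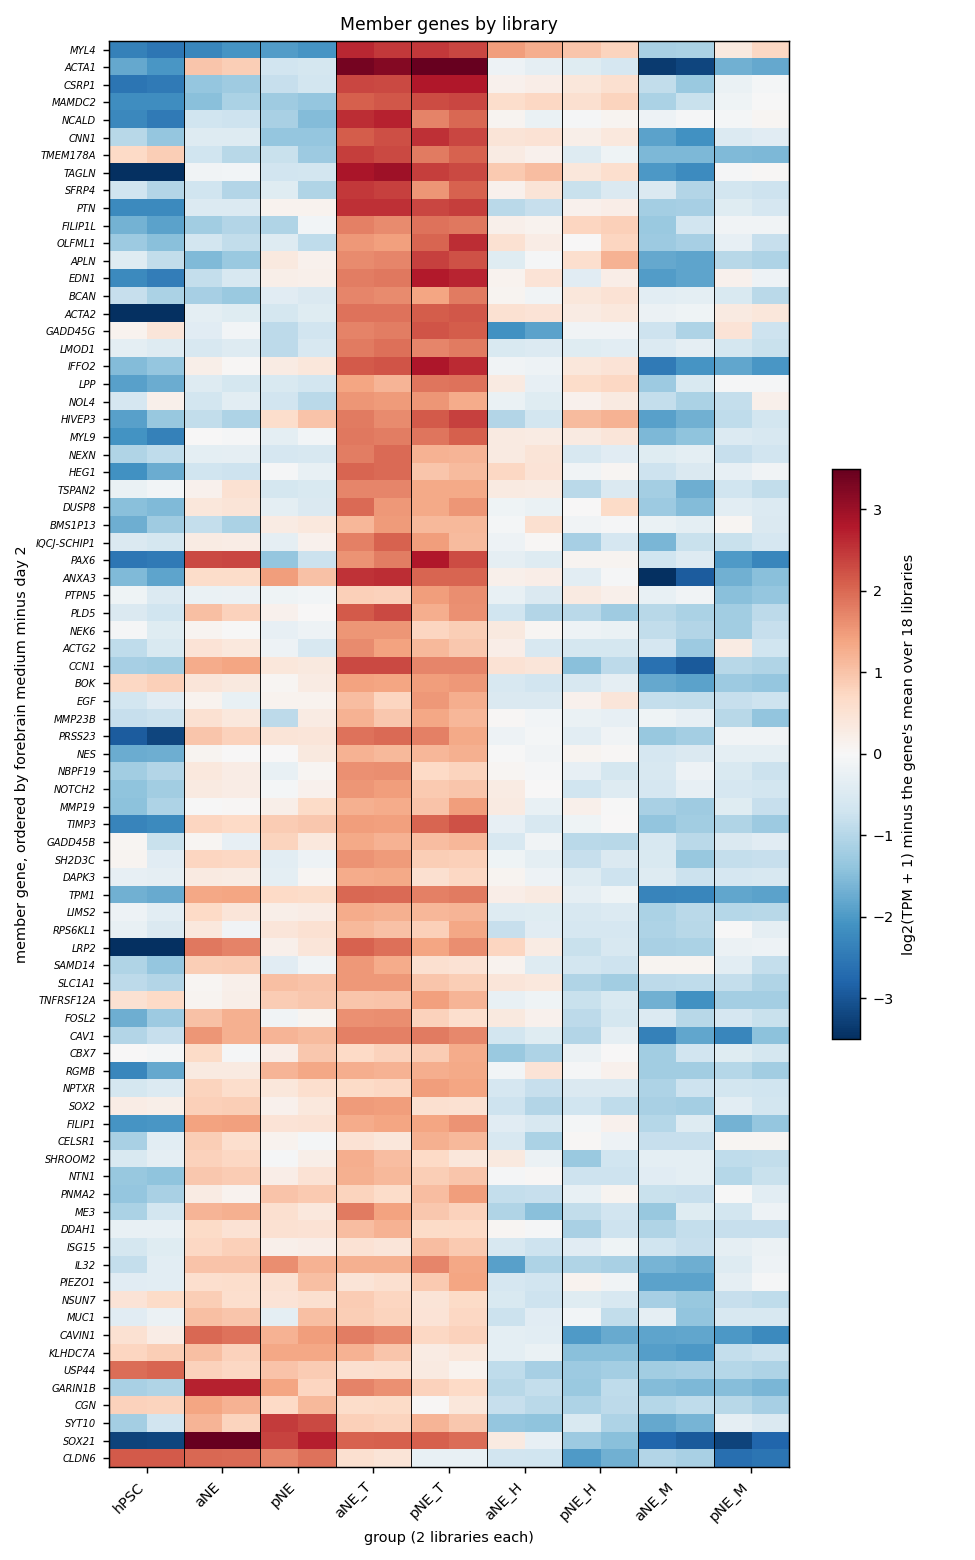
Each row is a member gene (81 of the 83 are drawn) and each column 1 of the 18 libraries; colour is log2(TPM + 1) minus the gene's mean over the libraries, and rows run from the genes highest against day 2 in forebrain medium to those lowest against day 2. The forebrain medium columns (aNE_T, pNE_T) are red in nearly every row, while the day-2 columns turn from blue at the top, as in MYL4, to red at the foot, as in CLDN6.

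The margins differed between the media and the origins. The median difference over the 83 genes was 2.49 for aNE_T minus aNE_M and 1.6 for aNE_T minus aNE_H. In posterior-derived cells it was 1.97 for pNE_T minus pNE_M and 1.64 for pNE_T minus pNE_H. Over the 17033 tested genes (those that reached 1 TPM in 2 libraries or more), the corresponding medians were 0.04, 0.07, 0.03 and 0.04, and 7.49%, 5.81%, 6.04% and 4.33% of genes were at least 1 higher and 3.86%, 2.17%, 3.95% and 2.23% at least 1 lower. The largest margin, taken as the smallest of a gene's 4 differences, was 3.53 in ACTA1. It was followed by PLD5, CAV1, IFFO2, GADD45G, ANXA3, PTN, LMOD1, TMEM178A, CSRP1, SFRP4, CAVIN1, SOX21, PAX6 and IQCJ-SCHIP1. At the limit of 1, NEK6 (1.016), PTPN5 (1.021) and SOX2 (1.041) lay just inside, and PDLIM7 (0.998), TAP1 (0.99) and NBPF26 (0.989) just outside.

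Genes of the contractile apparatus held the highest levels. ACTA1, skeletal muscle alpha-actin, stood at 198 and 178 TPM in aNE_T and 342 and 355 in pNE_T. It was at 16.1 and 14.6 in aNE_H, 13.4 and 12 in pNE_H, 5.03 and 4.63 in pNE_M, and 0.9 and 1.09 in aNE_M. Earlier it had been at 4.58 and 3.77 in hPSC, 37.1 and 34.4 in aNE, and 11.2 and 11.7 in pNE. Thus no other library came near the forebrain medium libraries, and the midbrain medium libraries lay at or near the day-0 level or under it. The differences from the other media were 6.57 and 3.53 in anterior-derived cells and 5.91 and 4.67 in posterior-derived cells. ACTA1 lies on chromosome 1 (229431245 to 229434094, GRCh38.p14).

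TAGLN, transgelin, an actin-binding protein of smooth muscle, was the most abundant member. It reached 3140 and 3369 TPM in aNE_T and 2300 and 2158 in pNE_T. The other media gave 815 and 910 (aNE_H), 568 and 654 (pNE_H), 421 and 441 (pNE_M) and 107 and 93.2 (aNE_M). At day 2 it stood at 398 and 403 in aNE and 273 and 275 in pNE, and at day 0 at 28.6 and 28.3. Every library from day 2 on lay above the stem cell libraries, and midbrain medium split by origin, with aNE_M the lowest of the day-4 groups. TPM1, tropomyosin 1, stood at 2222 and 2209 TPM in aNE_T and 1886 and 1964 in pNE_T, against 111 and 113 in aNE_M and 158 and 151 in pNE_M. Hindbrain medium gave 657 and 692 in anterior-derived and 449 and 496 in posterior-derived cells. TPM1 had already been at 1418 and 1440 in aNE and 898 and 861 in pNE, from 171 and 163 in hPSC. Its midbrain medium values thus lay just under those of undifferentiated cells.

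CNN1, calponin 1, which restrains actomyosin, had no such day-2 level. It stood at 36.3 and 36.4 TPM in aNE and 18.8 and 18.9 in pNE, beside 24.7 and 18.8 in hPSC, and reached 221 and 240 in aNE_T and 298 and 258 in pNE_T. The other media held 57.9 to 70.7 TPM (hindbrain), 35.3 and 37.4 (pNE_M) and 12.8 and 10.7 (aNE_M). CSRP1, a LIM-domain partner of SRF and alpha-actinin, went from 10.1 and 10.8 TPM at day 0 through 24.2 to 40.8 at day 2 to 327 and 321 in aNE_T and 452 and 454 in pNE_T. MYL4, an atrial and embryonic myosin light chain, was close to 0 before day 4, at 0.132 and 0 TPM in hPSC, 0.183 and 0.392 in aNE, and 0.508 and 0.391 in pNE. It stood at 35.5 and 31 in aNE_T and 31.2 and 28.3 in pNE_T, and also at 15.1 and 13 in aNE_H, 10.4 and 8.94 in pNE_H and 6.4 and 8.65 in pNE_M. MYL9, the regulatory light chain of nonmuscle and smooth muscle myosin, reached 982 and 944 TPM in aNE_T and 994 and 1151 in pNE_T.

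ACTA2, smooth muscle alpha-actin, was at 312 and 310 TPM in aNE_T and 365 and 380 in pNE_T, and the lowest of the other day-4 libraries held 72.4. LMOD1, leiomodin, which nucleates actin filaments, was at 5.92 to 7.07 TPM in the 4 forebrain medium libraries and under 0.7 in all 14 others. ACTG2, smooth muscle gamma-actin, reached only 5.55 to 9.72 TPM in forebrain medium. ACTA1, ACTA2 and ACTG2 have near-identical coding sequences, so the division of reads among them depends on the authors' quantification. LPP, NEXN (nexilin), DAPK3 (a myosin light chain kinase) and the filamin-interacting FILIP1 and FILIP1L also belong to this side of the set. Of the 41 genes of the actin list that are not members, 26 exceeded aNE_M by at least 1 in aNE_T, 8 exceeded aNE_H, and in pNE_T 16 exceeded pNE_M and 14 exceeded pNE_H, while 1 (DES) was lower by as much, in aNE_T against aNE_M. Their median differences were 1.28, 0.62, 0.85 and 0.86. Of all tested genes 7.49%, 5.81%, 6.04% and 4.33% were at least 1 higher in these contrasts and 3.86%, 2.17%, 3.95% and 2.23% at least 1 lower. The list was written after the members had been seen, so its counts are not independent of the set. ACTC1, cardiac alpha-actin, which stays outside the set because its 2 forebrain medium levels differed, averaged 67.7 ± 3.77 TPM (SD, n = 2) in aNE_T and 204.9 ± 12.2 in pNE_T against 1.822 ± 0.0151 in aNE_M and 12.96 ± 0.193 in pNE_M.

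**Figure D2:**
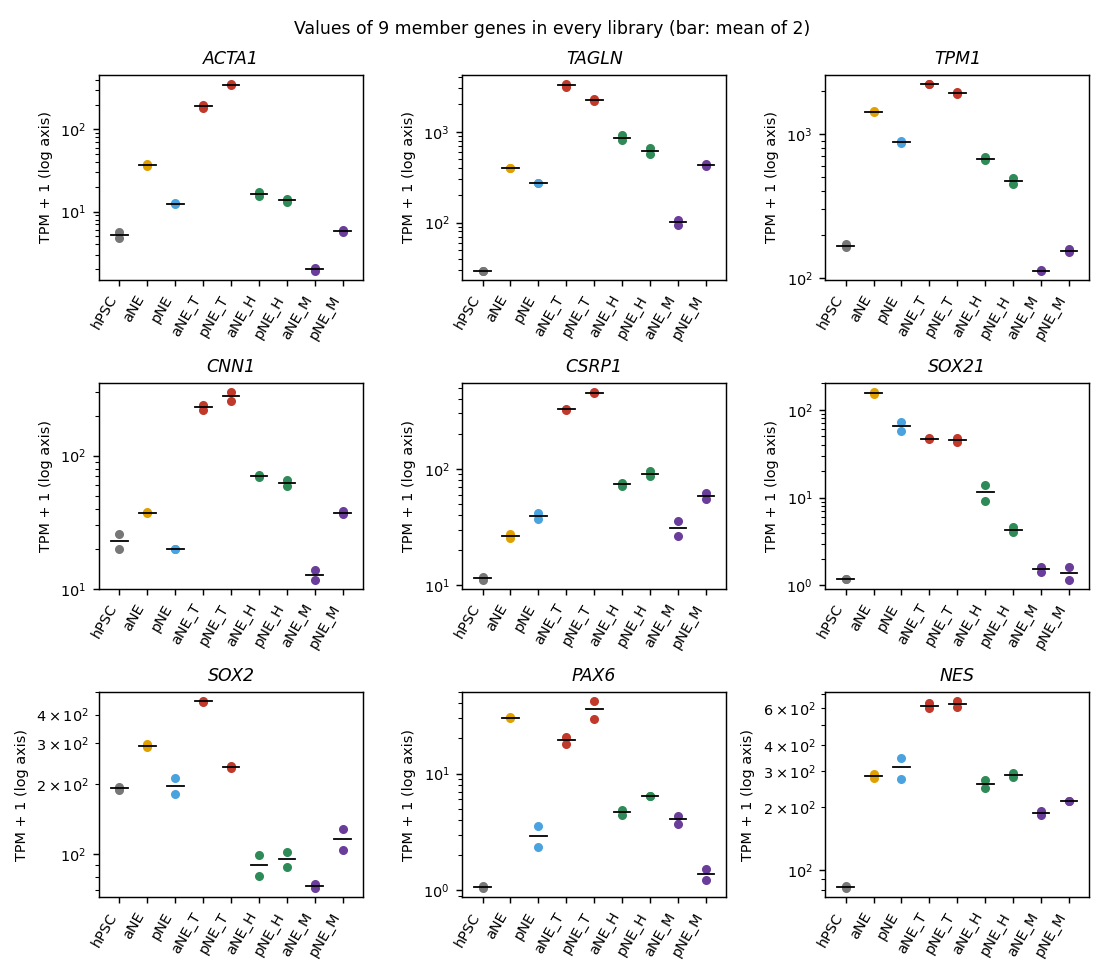
TPM + 1 on a log axis for 9 member genes in each of the 18 libraries (points; the bar is the mean of the 2 libraries of a group). The contractile genes ACTA1, TAGLN, TPM1, CNN1 and CSRP1 peak in aNE_T and pNE_T, whereas SOX21 is highest in aNE, at 157 and 152 TPM.

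The caveolar genes in forebrain medium stood near their day-2 levels and in the other media well below them. CAV1, caveolin 1, which shapes the flask-like pits of the membrane, stood at 17.8 and 14.2 TPM in aNE, 13.6 and 12.9 in pNE, 20.6 and 20.7 in aNE_T, and 21.7 and 19.7 in pNE_T. It was at 3.13 and 3.78 in aNE_H, 2.17 and 4.12 in pNE_H, 0.238 and 0.808 in aNE_M, and 0.318 and 1.38 in pNE_M. CAVIN1, which coats these pits, was at 62.5 and 57.8 TPM in aNE and 53.9 and 49.3 in aNE_T, at 35.6 and 42 in pNE and 25 and 26.3 in pNE_T, and at 2.33 to 3.48 in the 4 midbrain medium libraries. For both genes the forebrain medium libraries therefore stayed within 1 of day 2 on the log2 scale, and the other 2 media lay below it. PIEZO1, a stretch-gated cation channel, was at 57 and 61.6 TPM in aNE_T, and 78.8 and 109 in pNE_T. Its other day-4 values were 44.4 and 37.6 in pNE_H, 33 and 40.1 in pNE_M, 27 and 25.4 in aNE_H, and 10.6 and 10.4 in aNE_M. ANXA3, a membrane-binding annexin, was at 158 and 165 TPM in aNE_T and 113 and 112 in pNE_T, at 30.6 and 31.2 in aNE_H, 20.3 and 25.9 in pNE_H, 7.62 and 9.06 in pNE_M, and 1.47 and 2.66 in aNE_M. IFFO2, a protein of the intermediate filament family, was at 82.5 and 86.7 TPM in aNE_T and 134 and 115 in pNE_T, against 15.8 to 25.5 in hindbrain and 2.4 to 4.41 in midbrain medium.

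The tight junction genes CLDN6 and CGN stood lower at day 4 than at day 2 in every medium, and nearest to day 2 in forebrain medium. CLDN6, a claudin of embryonic epithelia, stood at 994 and 1009 TPM in hPSC, 920 and 892 in aNE and 741 and 840 in pNE. It was at 330 and 309 in aNE_T, 187 and 189 in pNE_T, 142 and 138 in aNE_H, 109 and 103 in aNE_M, 55.9 and 69.8 in pNE_H, and 35.6 and 37.7 in pNE_M. It was the only member at least 1 lower in forebrain medium than at day 2 in both origins. CGN, cingulin of tight junctions, was at 35.9 and 36.9 TPM in aNE_T and 23.3 and 30.1 in pNE_T, below the 37.1 to 60.1 of day 2 and above the 9.63 to 12.5 of the other media.

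Of the neural progenitor genes, SOX2, a factor that holds stem and progenitor cells undifferentiated, was at 457 and 453 TPM in aNE_T and 239 and 234 in pNE_T. It was at 194 and 188 in hPSC, 289 and 297 in aNE, 181 and 211 in pNE, and 70.4 to 127 in the 8 libraries of the other media. NES, nestin, an intermediate filament of neural progenitors, was at 633 and 597 TPM in aNE_T and 608 and 649 in pNE_T. Its values were 182 to 293 in the other media, 274 to 346 at day 2 and 80.8 and 82.3 at day 0, so the forebrain medium libraries of the 2 origins overlapped each other and no other group.

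PAX6, a paired homeobox factor of forebrain and eye (chromosome 11, 31789026 to 31817961), differed between the origins before day 4. It stood at 28.9 and 29.3 TPM in aNE but 1.34 and 2.54 in pNE, and at 17 and 19.7 in aNE_T and 41 and 28.3 in pNE_T. The other media held 5.38 and 5.39 in pNE_H, 3.87 and 3.44 in aNE_H, 2.72 and 3.37 in aNE_M, and 0.508 and 0.232 in pNE_M. Against day 2, aNE_T lay below aNE and pNE_T above pNE, and the rule itself holds the 2 forebrain medium groups within 1 of each other. SOX21, a repressive relative of SOX2 (chromosome 13, 94709622 to 94712545), went from 0.171 and 0.19 TPM in hPSC to 157 and 152 in aNE and 56.8 and 72.6 in pNE. At day 4 it stood at 46 and 46.4 in aNE_T and 46.7 and 42.5 in pNE_T, 12.9 and 8.15 in aNE_H, 3.62 and 3.02 in pNE_H, and under 0.7 in midbrain medium. Other members that act on transcription or chromatin were HIVEP3, FOSL2, CBX7 and NOL4, at 4.89 to 22.6 TPM in forebrain medium.

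Among secreted members, PTN, the growth factor pleiotrophin, stood at 1033 and 1031 TPM in aNE_T and 881 and 939 in pNE_T. It was at 195 and 204 in pNE_H, 129 and 115 in pNE_M, 90.3 and 99.3 in aNE_H, and 76.2 and 77.7 in aNE_M. Its day-2 values were 124 and 126 in aNE and 192 and 190 in pNE, so hindbrain and midbrain medium lay near or below day 2 and forebrain medium far above it. SFRP4, a secreted WNT antagonist, was at 10.5 and 9.99 TPM in aNE_T, 5.06 and 7.79 in pNE_T and no more than 1.84 in the other 14 libraries. CCN1, a matricellular protein and YAP target, was at 290 and 286 TPM in aNE_T and 191 and 190 in pNE_T, 81 and 77.8 in aNE_H, 20.2 and 29.7 in pNE_H, 28.6 and 26.9 in pNE_M, and 8.52 and 6.54 in aNE_M. APLN, the peptide apelin, EDN1, the vasoconstrictor endothelin 1, and EGF, epidermal growth factor, stood at 5.06 to 35.2 TPM in the forebrain medium libraries. NTN1, the guidance cue netrin 1, was at 11.8 and 10.8 TPM in aNE_T and 8.78 and 9.52 in pNE_T. RGMB, a BMP coreceptor and not a secreted factor, was at 99.6 to 107 TPM in all 4 of these libraries. BCAN, the proteoglycan brevican of brain matrix, was at 16.1 to 22 TPM in forebrain medium and at 2.39 to 8.36 in the other media.

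Members with other roles include 2 receptors and genes of growth arrest, the interferon response and protein turnover. NOTCH2, a Notch receptor, was at 145 and 137 TPM in aNE_T, 94.1 and 97 in pNE_T and 29.6 to 60.1 in the other media. LRP2, megalin, an endocytic receptor of the neural tube, was at 92.2 and 84.2 TPM in aNE_T and 57.2 and 68.8 in pNE_T, with 9.26 to 36.6 in the other media. GADD45G, a growth-arrest and DNA-damage gene, was at 14.9 and 15.4 TPM in aNE_T and 20.9 and 19.7 in pNE_T, 0.103 and 0.306 in aNE_H, and between 1.27 and 5.68 in the other 6 day-4 libraries. ISG15, an interferon-induced ubiquitin-like protein, was at 54.9 and 52.1 TPM in aNE_T and 81.5 and 72.5 in pNE_T, against 21.3 to 34.5 in the other media. USP44, a deubiquitinase of pluripotent cells, was highest at day 0, at 129 and 137 TPM, and held 35.9 to 49.2 in forebrain medium and 13 to 17.1 in the other media.

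The rule did not use day 0 or day 2, so the members' change from stem cells to day-2 neural ectoderm could be tested (limma on log2(TPM + 1), Benjamini-Hochberg adjustment over the 17033 genes, called at an adjusted p under 0.05 and a change of at least 1). In aNE 46 of the 83 members were higher than in hPSC and 2 lower, where 7.36% of all tested genes were called higher and 6.19% lower. In pNE 42 were higher and 3 lower, where 7.14% and 5.74% of all genes were called. The median change was 1.22 in aNE and 1.04 in pNE, against 0.06 and 0.05 over all tested genes. The 2 comparisons share the hPSC libraries, and 37 members were called higher in both (4.54% of all tested genes) while 29 were called in neither (82.3%).

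SOX21 rose most, by 7.04 ± 0.2 (log2 difference ± SE, limma adjusted p = 3.35e-11) in aNE and by 5.79 ± 0.2 (limma adjusted p = 2.03e-10) in pNE, in both libraries each time. LRP2 rose by 5.92 and 4.43. PAX6 rose by 4.83 in aNE and by 1.44 in pNE, and ACTA2 by 3.76 and 3.61. Of the 16 members on the actin list, 11 rose in aNE and 10 in pNE, beside 46 (55.4%) and 42 (50.6%) of all 83 members. TAGLN (3.77 and 3.22), TPM1 (3.09 and 2.39), ACTA1 (2.83 and 1.27) and MYL9 (2.22 and 2.01) rose in both. CNN1, LMOD1, NEXN and DAPK3 passed the test in neither. TMEM178A fell by 1.6 in aNE and by 1.81 in pNE, and USP44 by 1.22 and by 1.05. GADD45G fell by 1.07 ± 0.3 in pNE (limma adjusted p = 0.0119), from 4.23 and 5.49 TPM to 1.55 and 2.02, and this call was lost without hPSC replicate 2 (adjusted p = 0.0862) or pNE replicate 1 (adjusted p = 0.0717). USP44 in pNE came under a change of 1 without pNE replicate 2, at -0.99.

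From day 2 to day 4 in forebrain medium the members divided into those that went on to higher levels and those that held theirs, as the plot of forebrain medium against day 2 shows. The rule chose members for high forebrain medium values, so the shares over all genes given here are context from which nothing is read. Plating density also differed between day 2 and day 4. With no test, 44 members were at least 1 higher in aNE_T than in aNE and 3 at least 1 lower, where 5.25% of all tested genes were higher and 5.25% lower by as much. In pNE_T 44 members were higher than in pNE and 3 lower, where the shares of all genes were 5.37% and 6.43%. A set of 35 members was at least 1 higher in both origins (1.70% of all tested genes), among them ACTA1, ACTA2, ACTG2, TAGLN, CNN1, CSRP1, LMOD1, MYL4, MYL9, LPP, NEXN, PTN, SFRP4, BCAN, NES and GADD45G. MYL4 stood above day 2 by 4.73 in anterior-derived and 4.41 in posterior-derived cells, and ACTA1 by 2.36 and 4.81. Another 25 stayed within 1 of day 2 in both (82.5% of all tested genes), among them CAV1, CAVIN1, SOX2, FILIP1, RGMB, NTN1, ISG15 and USP44. PAX6, TPM1, CCN1, TIMP3 and LRP2 were among 9 genes at least 1 higher in posterior-derived and within 1 in anterior-derived cells, and NOTCH2 and ANXA3 among 9 with the reverse. SOX21 and GARIN1B were lower than day 2 in anterior-derived cells alone, and SYT10 and KLHDC7A in posterior-derived cells alone. For the classes split by origin no share over all genes is given, and nothing is read from their counts.

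**Figure D3:**
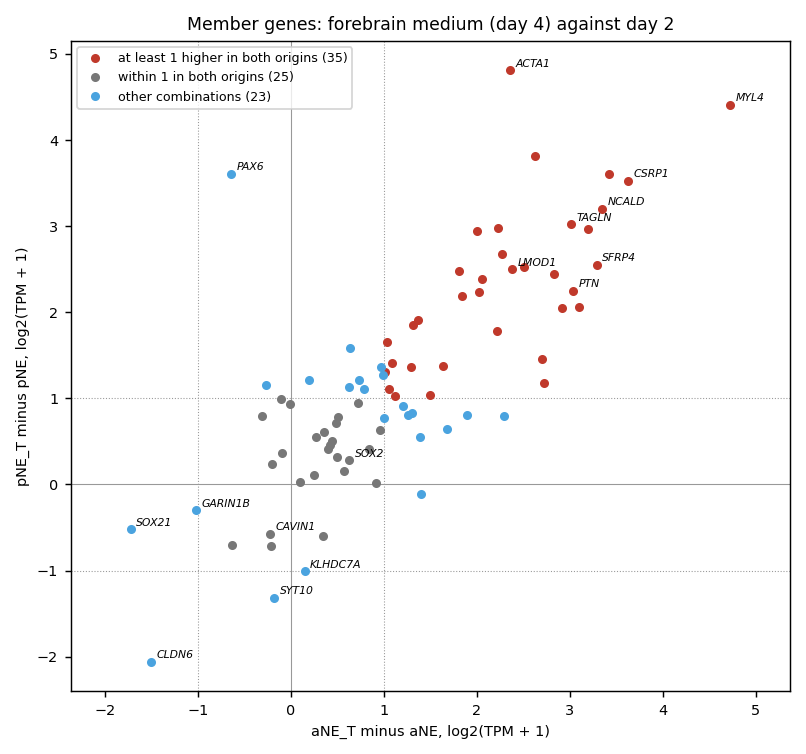
Each point is a member gene, with its log2(TPM + 1) difference between forebrain medium at day 4 and day 2 in anterior-derived (horizontal) and posterior-derived cells (vertical); dotted lines mark differences of 1 and colours the classes named in the key. ACTA1 and MYL4 lie farthest up, 35 genes lie past 1 on both axes, and CLDN6 lies past -1 on both.

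In the other media most of the members that moved from their day-2 level stood below it. The rule held both media at least 1 below forebrain medium, so the shares over all genes are context from which nothing is read. In aNE_M, 52 members were at least 1 lower than in aNE and 1, MYL4, at least 1 higher, where the shares of all genes were 8.69% and 4.75%. In pNE_M, 37 were lower and 3 higher, where the shares of all genes were 8.66% and 5.45%. In aNE_H, 30 were lower and 12 higher (all genes 8.01% and 3.65%), and in pNE_H 27 were lower and 11 higher (all genes 8.66% and 5.08%). The median differences from day 2 were -1.48 in aNE_M, -0.87 in pNE_M, -0.57 in aNE_H and -0.45 in pNE_H, against 1.04 in aNE_T and 1.11 in pNE_T. In anterior-derived cells 21 members, CAV1, CAVIN1, PAX6, SOX2, TPM1 and LRP2 among them, stayed within 1 of day 2 in forebrain medium and were at least 1 lower in both other media. The rule favours this class and no share over all genes is given for it, so nothing is read from its count.

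At day 2, before any brain medium, 13 of the 83 members differed between the origins. In all, 5 were higher in pNE than in aNE and 8 lower, where 2.37% of all tested genes were called higher and 1.48% lower, and the median difference was -0.21. At the looser limit of an unadjusted limma p under 0.05, 17 were higher and 33 lower. The shares just given do not apply at that limit, so nothing is read from these counts. HIVEP3, a zinc finger factor, was higher in pNE by 1.77 ± 0.22 (limma adjusted p = 0.000131), APLN by 1.67 and SYT10, a synaptotagmin, by 1.39, and BMS1P13 was also among the 5. PAX6 was lower in pNE by 3.39 ± 0.21 (limma adjusted p = 2.14e-07), from 28.9 and 29.3 TPM to 1.34 and 2.54. GARIN1B was lower by 1.63, ACTA1 by 1.56, LRP2 by 1.49 and SOX21 by 1.25, and SAMD14, FOSL2 and SH2D3C were also lower. When only the 4 aNE and pNE libraries were fitted, which leaves 2 residual degrees of freedom, 2 members were higher and 3 lower. At day 4, with no test, the median of pNE_M minus aNE_M was 0.4, with 13 members at least 1 higher and 3 at least 1 lower, where 3.81% and 3.14% of all tested genes were. The median of pNE_H minus aNE_H was -0.12, with 5 and 9, where the shares of all genes were 4.55% and 3.49%. The means of these day-4 groups entered the rule, so nothing is read from these shares.

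The rule set no order between hindbrain and midbrain medium, but it drew on the means of both, with the same limit for each. The members' differences between these media are therefore not independent of the rule, and the shares over all genes stand beside them as context from which nothing is read. In anterior-derived cells the hindbrain medium mean lay above the midbrain medium mean in 75 of the 83 members, and in posterior-derived cells in 58. The same held for 46.0% and 47.2% of all tested genes. In aNE_H 35 members were higher than in aNE_M and 1 lower, where 2.27% of all tested genes were called higher and 2.65% lower. In pNE_H 17 were higher than in pNE_M and 0 lower, where 3.0% and 2.99% of all genes were called. At the looser limit of an unadjusted limma p under 0.05, to which these shares do not apply, the counts were 39 and 4. The median difference was 0.75 in anterior-derived and 0.31 in posterior-derived cells, against -0.01 and 0 over all tested genes. In 54 members the hindbrain medium mean lay above the midbrain medium mean in both origins (24.9% of all tested genes), and in 4 it lay below in both (29.6%). Called higher in both origins were 10 members, among them ACTA1, ANXA3, APLN, CAV1, IFFO2, RGMB, SOX21, TMEM178A and TPM1, where 0.616% of all tested genes were called so.

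The means of these groups entered the rule, so the limma values of single members given here are not independent of it. ANXA3 was higher in aNE_H by 3.41 ± 0.19 (limma adjusted p = 4.94e-08), at 30.6 and 31.2 TPM against 1.47 and 2.66. CCN1 was higher there by 3.25 ± 0.14 (limma adjusted p = 4.99e-09) and TAGLN by 3.09 ± 0.08 (limma adjusted p = 7.79e-11), and all of their aNE_H libraries lay above the aNE_M libraries. GADD45G was lower in aNE_H by 1.09 ± 0.3 (limma adjusted p = 0.0252), at 0.103 and 0.306 TPM against 1.88 and 1.27, a call lost without either aNE_H library (adjusted p = 0.132 and 0.0624) or aNE_M replicate 1 (adjusted p = 0.157). In pNE_H, IFFO2 was higher by 2.37 ± 0.14 (limma adjusted p = 7.37e-08), PAX6 by 2.23 ± 0.21 (limma adjusted p = 6.72e-06) and HIVEP3 by 1.93 ± 0.22 (limma adjusted p = 3.99e-05). Of the 16 members on the actin list, 9 were called higher in aNE_H and 3 (ACTA1, CAV1 and TPM1) in pNE_H, beside 35 (42.2%) and 17 (20.5%) of all 83 members.

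The difference between the origins was itself tested as an interaction, added after these counts had been seen and drawn from the same 4 groups, so the same limit holds. In 20 members the hindbrain-minus-midbrain difference, taken with its sign, was smaller in posterior-derived than in anterior-derived cells, and in 3 it was larger. Of all tested genes 3.30% and 3.69% were called so. Among the 20 some changed sign, such as KLHDC7A (1.69 in anterior-derived and -0.68 in posterior-derived cells) and LRP2 (1.63 and -0.48). CCN1 (-3.42), TAGLN (-2.59) and KLHDC7A (-2.37) were the largest of the 20, and the 3 were PAX6 (2.02), PTPN5 (1.84) and FILIP1 (1.29). For TAGLN the posterior-derived values were 568 and 654 TPM in hindbrain and 421 and 441 in midbrain medium, and for CCN1 they overlapped, at 20.2 and 29.7 against 28.6 and 26.9. The plot of hindbrain against midbrain medium shows these genes off the diagonal.

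**Figure D4:**
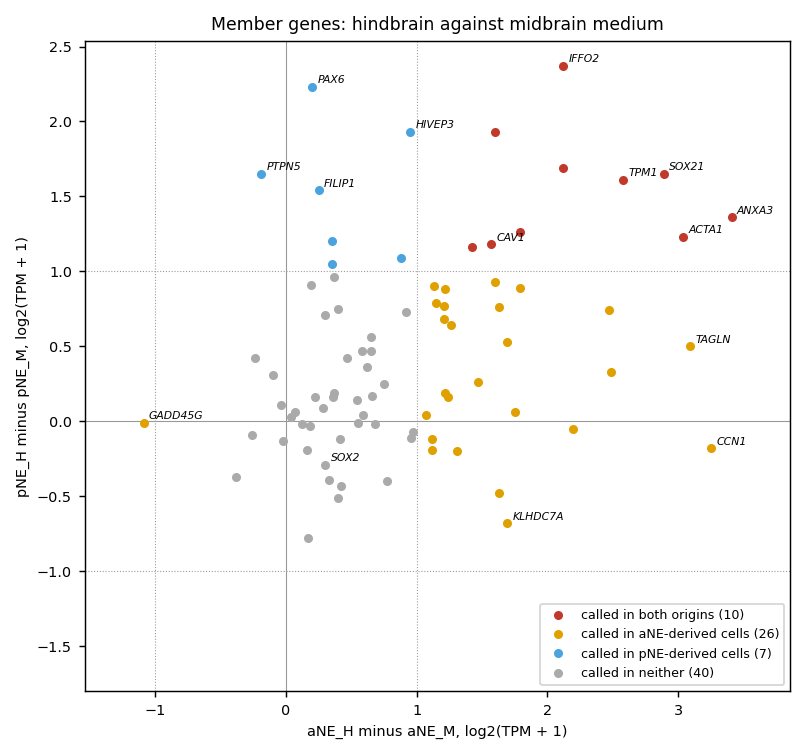
Each point is a member gene, with its log2(TPM + 1) difference of hindbrain minus midbrain medium in anterior-derived (horizontal) and posterior-derived cells (vertical); dotted lines mark differences of 1 and colours show in which origin the limma test called it. The 10 genes called in both lie at upper right, CCN1 and TAGLN lie far right near a posterior difference of 0 and 0.5, and PAX6 lies high at the left.

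Genes of related pathways outside the set were read from lists for comparison. Of the 12 Hippo and YAP target genes other than the member CCN1, 8 were called higher and 0 lower in aNE_T than in aNE_M, 1 and 0 against aNE_H, 5 and 1 in pNE_T against pNE_M, and 8 and 0 against pNE_H. Their median differences were 1.51, 0.64, 0.78 and 1.39. With CCN1, whose differences the rule fixed, the higher counts are 9, 2, 6 and 9. At an unadjusted limma p under 0.05 the lower counts were 1, 0, 2 and 0. In these 4 contrasts 6.55%, 4.83%, 5.29% and 3.38% of all tested genes were called higher and 3.5%, 1.78%, 3.31% and 1.65% lower. ANKRD1, a muscle ankyrin repeat gene, averaged 124 ± 2.67 TPM (SD, n = 2) in aNE_T and 366.8 ± 11.4 in pNE_T against 0.3988 ± 0.131 in aNE_M and 8.957 ± 2.27 in pNE_M. CCN2, connective tissue growth factor, averaged 217.7 ± 5.54 and 410.4 ± 0.797 TPM against 18.75 ± 0.115 and 73.48 ± 3.22. With CCN1 counted, the 2 higher genes against aNE_H became 5 without aNE_H replicate 1, and F3, the 1 lower gene, was not called without pNE_M replicate 1 or pNE_T replicate 1.

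Most WNT response genes were lower in forebrain than in midbrain medium. Of 19 tested, 0 were called higher and 13 lower in aNE_T than in aNE_M, and 0 and 15 in pNE_T against pNE_M, with medians of -1.92 and -3.15. At an unadjusted limma p under 0.05, 2 and 0 of them were higher. Against hindbrain medium 1 was higher and 7 lower in anterior-derived cells and 0 and 6 in posterior-derived cells, with medians of -0.72 and -0.44. AXIN2, a negative-feedback gene of the pathway, averaged 8.446 ± 0.917 TPM (SD, n = 2) in aNE_T and 29.55 ± 2.19 in pNE_T, 313.5 ± 1.47 in aNE_M and 270.2 ± 3.23 in pNE_M, and 33.93 ± 1.62 in aNE_H and 69.74 ± 5.02 in pNE_H. LEF1, a nuclear effector, averaged 5.741 ± 0.495 and 4.138 ± 1.15 TPM in forebrain medium against 138.7 ± 18.8 and 161.8 ± 3.62 in midbrain medium. The 1 gene higher in aNE_T than in aNE_H, NKD2, was not called without aNE_H replicate 2 or aNE_T replicate 2.

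The FGF-ERK response list held genes on both sides. Of 20 genes, 4 were called higher and 0 lower in aNE_T than in aNE_M (unadjusted p under 0.05: 12 and 3), 2 and 1 against aNE_H, 3 and 4 in pNE_T against pNE_M, and 2 and 3 against pNE_H, with medians of 0.36, 0.07, 0.02 and -0.09. DUSP6, an ERK phosphatase, averaged 274.1 ± 3.44 TPM (SD, n = 2) in aNE_T, 226.2 ± 2.41 in aNE_M and 344.1 ± 10.7 in aNE_H. IER3, an immediate early gene, was called higher in all 4, at means of 126.9 ± 0.262 TPM in aNE_T and 25.33 ± 1.04 in pNE_T, and SPRY4 was called lower in 3 of the 4. Of the 16 tested forebrain transcription factors other than the member PAX6, 13 were called higher and 2 lower in aNE_T than in aNE_M, and 13 and 1 against aNE_H. In pNE_T they were 5 and 2 against pNE_M and 5 and 0 against pNE_H (unadjusted p under 0.05: 8 and 1). With PAX6, whose differences the rule fixed, the higher counts are 14, 14, 6 and 6. SIX3, of the anterior forebrain, averaged 396.7 ± 24.2 TPM (SD, n = 2) in aNE_T and 38.88 ± 1.25 in pNE_T, so it failed the condition that the levels of the 2 origins lie within 1 of each other. OTX2 and EMX2 were the 2 lower against aNE_M, and EMX2, the 1 lower against aNE_H, was not called without aNE_H replicate 1 or aNE_T replicate 2.

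**Figure D5:**
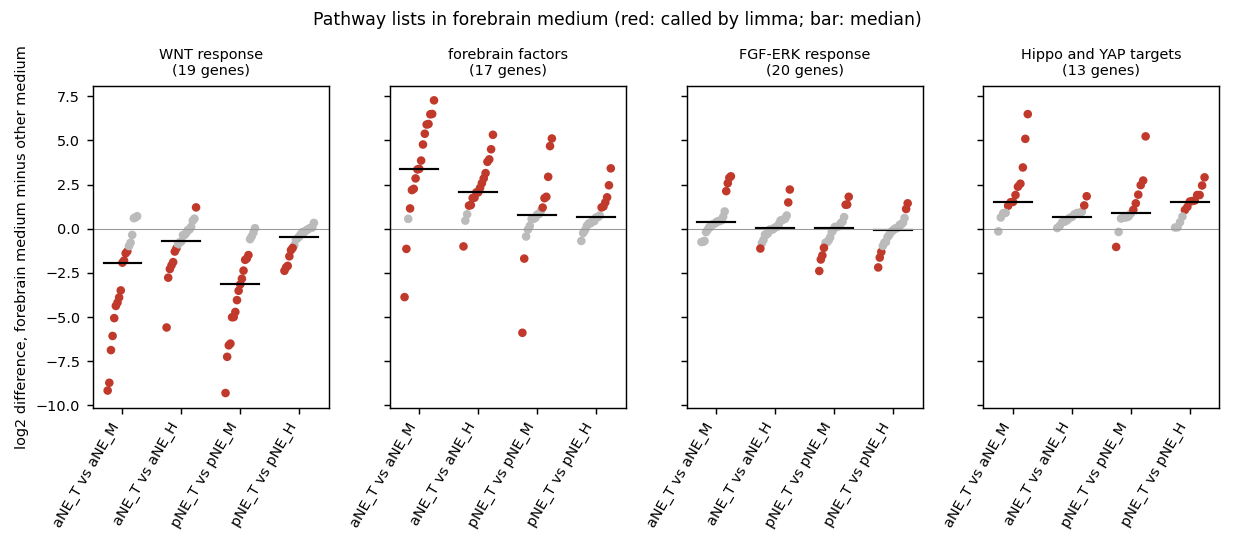
Log2(TPM + 1) difference of forebrain medium minus each other medium for the genes of 4 lists (points; red where the limma test called the gene; the bar is the list's median). The members CCN1 and PAX6 are drawn in their lists, but the rule fixed their differences and nothing is read from their colour. WNT response genes lie low against midbrain medium, with medians of -1.92 and -3.15, forebrain factors lie high in anterior-derived cells, FGF-ERK response genes lie on both sides of 0, and Hippo and YAP targets lie mostly above it.

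Markers of cell types were read as summed TPM per library. In bulk RNA fewer cells of a type and less RNA per cell cannot be told apart. For 8 smooth muscle genes, a list written after the members had been seen, the sum was 271.5 to 287.4 TPM in aNE_T, 311.4 to 348.1 in pNE_T and at most 101.6 in the other groups. Members CNN1, LMOD1 and ACTG2 made up most of it: the other 5 genes summed to 32.52 to 34.44 in aNE_T, 38.04 to 41.89 in pNE_T and 14.83 to 34.83 in the other groups. Of these, MYH11, smooth muscle myosin, averaged 3.259 and 3.139 TPM in aNE_T and pNE_T, DES, desmin, 0.2699 and 0.4166, and MYOCD, the cofactor of SRF in muscle, 2.861 and 10.64. For 8 mesenchyme genes the sum was 116.6 to 137.3 TPM in aNE_T and 381.1 to 431.9 in pNE_T, against 190.3 to 213 in aNE_M, 335.7 to 351.1 in pNE_M, 259.8 to 278.3 in aNE_H and 488.2 to 497.4 in pNE_H, with LUM at 0 in both aNE_M libraries. The part of such cells in the contractile members' levels was not tested. For the 7 neural progenitor markers that are not members (of 10), the sum was 573.3 to 582.9 TPM in aNE_T, 291.8 to 298.2 in pNE_T, 328 to 367.3 in aNE_M, 214.2 to 236 in pNE_M, 270.5 to 295.4 in aNE_H and 158.2 to 165.6 in pNE_H, with HES5 listed at 0 in both hindbrain medium groups. Gene by gene, 4 of the 7 were called higher and 0 lower in aNE_T than in aNE_M, and 5 and 0 against aNE_H. In pNE_T the counts were 1 and 1 against pNE_M and 3 and 1 against pNE_H. The median differences of the 7 were 1.04, 1.12, -0.29 and 0.82, so they were not higher as a group in pNE_T than in pNE_M. Neuron markers summed to 294.5 to 318.4 TPM in aNE_T and 81.77 to 104 in pNE_T, to 625.6 to 654.2 in aNE_M and 283.6 to 302.4 in pNE_M, and to 281.1 to 312.3 in aNE_H and 88.75 to 101.9 in pNE_H. Pluripotency markers summed to 1267 and 1271 TPM in aNE_T and 1037 and 1113 in pNE_T, 947.8 to 1393 in the other media and 5206 and 5207 in hPSC. Mesendoderm markers summed to 6.067 to 6.229 TPM in the 4 forebrain medium libraries, 98.02 to 117.1 in aNE_M, 16.2 to 16.87 in pNE_M, 5.702 to 7.14 in aNE_H and 3.345 to 5.805 in pNE_H. Neural crest markers summed to 25.03 to 29.15 TPM in the 4 forebrain medium libraries, 139.8 to 150.9 in aNE_M, 84.38 to 97.16 in pNE_M, 111 to 119.2 in aNE_H and 46.19 to 47.56 in pNE_H. Surface ectoderm markers summed to 592.8 to 598.9 TPM in aNE_T and 1222 to 1341 in pNE_T, 928 to 986.8 in aNE_M and 2066 to 2122 in pNE_M, and 1317 to 1410 in aNE_H and 1494 to 1700 in pNE_H.

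Some members cannot be read apart from other loci. NBPF19 and BMS1P13 belong to families of near-identical copies, IQCJ-SCHIP1 is a readthrough that shares exons with SCHIP1, and whether strand was used in counting is not given in the sources used here.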

How the data were processed

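Messenger RNA of 18 libraries in 9 groups of 2 was measured. The authors deposited 1 table of TPM values per gene and library. Per the submitters' processing notes, bcl2fastq, FastQC, Trim Galore, kallisto, deepTools and the build hg38 were used, with no versions and no roles stated. Library depth is unknown. Groups were taken from the labels. The member genes, the gene lists and the tests were chosen with earlier results of these data known. The actin and smooth muscle lists, the CArG, TEAD, AP-1 and TATA motifs and the interaction were added after the members' values had been seen.

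A pseudocount of 1 was added before taking log2. The tests kept 17033 genes, those that reached 1 TPM in 2 libraries or more, and all 83 members were among them. The log2(TPM + 1) scale understates changes of weakly expressed genes. All 18 libraries entered 1 limma model (version 3.58.1, R 4.3.3) with a separate mean for every group and a variance trend, which left 9 residual degrees of freedom. P-values were two-sided and adjusted by the Benjamini-Hochberg method over the tested genes. Calls required an adjusted p below 0.05 together with a difference of 1 or more in size. The fit was tested on simulated data. Errors are SE from limma. Tables and figures were made with Python 3.11.15, pandas 2.3.3 and matplotlib 3.10.9. Coordinates and promoters are from RefSeq (GRCh38.p14).

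Genes were named by rule: members on a list fixed at the outset, the 15 with the largest margin, the 3 called members with the largest rise and the 3 with the largest fall in each tested comparison, the 3 on either side of the margin, the 5 with the highest level in forebrain medium, and genes of the FGF-ERK, WNT and forebrain lists. Every other gene named in the text was chosen after its values had been seen. Alternatives were quantile normalization, median-ratio scaling, a pseudocount of 0.1, a filter at 5 TPM or none, models restricted to the groups compared, calls by adjusted p without a size limit, a replicate block, other margins and levels of the rule, and leaving out each library. A few named genes are not reported here.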

Additional observations from a re-analysis of the deposited data

Results flagged for a closer look

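The difference between hindbrain and midbrain medium was not the same in cells of the 2 origins for 23 of the 83 members, by limma's test of the interaction. This test was added after the counts in each origin had been seen and uses 4 groups whose means also entered the rule for members. In 20 members the difference, taken with its sign, was smaller in posterior-derived cells and in 3 larger. Of all tested genes 3.30% and 3.69% were called so, shares from which nothing is read. The hindbrain-minus-midbrain difference was smaller in posterior-derived cells by 3.42 on the log2 scale for CCN1 (-3.42 ± 0.2, adjusted p = 1.83e-07 by limma), by 2.59 for TAGLN (-2.59 ± 0.12, limma adjusted p = 2.73e-08) and by 2.37 for KLHDC7A (-2.37 ± 0.19, limma adjusted p = 3.33e-06). KLHDC7A stood at 3.71 and 4.14 TPM in aNE_H against 0.568 and 0.488 in aNE_M, but at 1.16 and 1.19 in pNE_H against 2.37 and 2.59 in pNE_M.

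The difference was larger in posterior-derived cells for PAX6 (2.02 ± 0.3, limma adjusted p = 0.000486), for PTPN5, a phosphatase of neurons (1.84 ± 0.2, limma adjusted p = 4.26e-05), and for FILIP1 (1.29 ± 0.24, limma adjusted p = 0.00287). PTPN5 stood at 7.61 and 6.94 TPM in pNE_H against 1.52 and 1.74 in pNE_M, and at 4.87 and 3.89 in aNE_H against 4.81 and 5.4 in aNE_M. FILIP1 was not called when only the 8 libraries concerned were fitted (limma adjusted p = 0.0727). Origin and plating density cannot be told apart in this comparison.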

How the results depend on the processing

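Membership depended on the margin: 364 genes met the rule at a margin of 0.5 and 30 at 1.5. With a pseudocount of 0.1 there were 93 members (81 shared with the 83), with median-ratio scaling 80 (79 shared), with quantile normalization 73 (71 shared), and without 1 replicate number 81 to 97 (67 shared without replicate 2 and 74 without replicate 1). Replicate 1 alone and replicate 2 alone both selected 59 of the members. Replicate numbers did not pair the libraries: over 36 pairs of groups the correlation of same-numbered deviations ran from -0.09 to 0.08. With a replicate block the members called higher and lower were again 46 and 2 (aNE against hPSC), 42 and 3 (pNE against hPSC), 5 and 8 (pNE against aNE), 35 and 1 (aNE_H against aNE_M) and 17 and 0 (pNE_H against pNE_M), and the block changed no other call counted here.

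When only the libraries compared were fitted, the pNE against aNE counts became 2 higher and 3 lower and the aNE_H against aNE_M counts 20 and 0, and fewer degrees of freedom were left. Without the filter on low values the 1 lower member of aNE_H against aNE_M became 0. With a pseudocount of 0.1, pNE_H against pNE_M gained 1 lower member. At adjusted p alone, with no limit on size, lower members were 5 in aNE and 5 in pNE against hPSC, pNE against aNE gave 14 higher and 22 lower, pNE_H against pNE_M 34 and 3, and the interaction 6 higher. Leaving out 1 library gave ranges of 44 to 46 and 2 to 3 (aNE against hPSC), 39 to 45 and 2 to 3 (pNE against hPSC), 5 to 7 and 7 to 10 (pNE against aNE), 34 to 37 and 0 to 1 (aNE_H against aNE_M), 15 to 20 and 0 to 0 (pNE_H against pNE_M), and 3 to 5 and 16 to 20 (interaction, with 5 larger without pNE_M replicate 1).

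For the lists, with the members CCN1 and PAX6 counted, adjusted p alone gave FGF-ERK counts of 11 higher and 3 lower (aNE_T against aNE_M), 5 and 6 (aNE_T against aNE_H), 5 and 7 (pNE_T against pNE_M) and 4 and 6 (pNE_T against pNE_H), WNT response counts of 2 higher against aNE_M and 2 against aNE_H, 10 forebrain factors higher in pNE_T than in pNE_M, and Hippo and YAP counts of 1 lower against aNE_M, 9 higher against aNE_H, and 10 higher and 2 lower against pNE_M. The pseudocount of 0.1 gave 1 and 2 WNT response genes higher against aNE_M and aNE_H, 11 forebrain factors higher in pNE_T than in pNE_M and 1 lower than in pNE_H. The fit of only the libraries compared gave 1 FGF-ERK gene higher in pNE_T than in pNE_H, 0 WNT response genes higher in aNE_T than in aNE_H (also 0 without the filter) and 0 Hippo and YAP genes lower in pNE_T than in pNE_M. Without 1 library the WNT response genes higher against aNE_H were 0 to 1, the forebrain factors lower against aNE_H 0 to 1, the Hippo and YAP genes higher against aNE_H 2 to 5 and lower against pNE_M 0 to 1. The cause of these moves was not tested. HIVEP3 (adjusted p = 0.058), SYT10 (0.0661) and GARIN1B (0.0814) lost their pNE against aNE calls when only 4 libraries were fitted. Of the single genes, 12 values lost their call under an alternative and 342 kept it, and no value changed sign.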
